A study of Rattus norvegicus with 12 samples.

Results

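Andpro, Scgb1d2, Scgb1d4, Klk1, Klk1c2 and Klk1c8 are 6 rat genes for proteins that glands secrete, and all 6 gave a lower signal in the bladder of old rats than in that of young rats. They were chosen by their measured differences between these groups in earlier work on the same arrays. Their levels and differences are therefore given as a description, with no test. Each gene was represented by 1 probe, found through the RefSeq accession that the array files give for it, and each probe was printed in 2 spots. The 6 genes were among 15154 named genes on the array, and all 6 were among the 20425 features tested, which are genes or unnamed transcripts that were bright enough on all 4 arrays of at least 1 group. Andpro, Scgb1d2 and Scgb1d4 entered that set through the young group alone, so they had to be dimmer elsewhere. Klk1c8 entered through the young and old fed groups, and Klk1 and Klk1c2 through all 3 groups.

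Total RNA came from the bladder body of 12 male Fischer 344 rats, and each animal had its own 1-colour Agilent array. The young group held 4 rats aged 6 months with free access to normal food. The old fed group held 4 rats aged 25 to 28 months on the same free access. The old restricted group held 4 rats aged 25 to 28 months that had been fed on 3 days a week since the age of 6 weeks, which came to about 40% less energy than the old fed rats took in. No genetic change or drug was part of the design. All levels below are processed signals on a log2 scale relative to the 75th percentile of the same array, so a value of 0 is the brightness of that percentile and each step of 1 is a 2-fold change in signal. Agilent's software marks a spot as well above background when its signal clearly exceeds that of the surface around it.

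The glandular kallikreins are secreted serine proteases, made in quantity by the salivary glands, pancreas, kidney and male accessory glands. Klk1, tissue kallikrein, cuts kininogen to release kinins, which act on receptors in blood vessels and smooth muscle, and rodents carry a cluster of close relatives of this gene, the Klk1c genes among them. Secretoglobins are small secreted proteins, and in the rat Scgb1d2 and Scgb1d4 encode alternative subunits of prostatein, the abundant steroid-binding protein of the ventral prostate. Andpro encodes a cystatin-related protein of the ventral prostate whose production depends on androgens. The prostate lies against the neck of the bladder, and the urethra and its glands open below it.

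Arrays of the 3 groups differed in how far down the signal could be read. Between 21659 and 22294 of 30367 probes were well above background on the young arrays, 23373 to 24644 on the old fed arrays and 22566 to 23200 on the restricted arrays. The lowest level among probes well above background was between -7.14 and -6.89 in young, between -8.40 and -7.81 in old fed and between -7.73 and -7.46 in restricted animals. The faintest readable signal was thus lower in both old groups than in the young group. Young and old fed arrays lay on 1 slide, all young arrays in row 1 and all old fed arrays in row 2, so array row and age cannot be told apart. All restricted arrays lay on the second slide, so slide and restriction cannot be told apart either. Markers of the labelled tissue were present: summed signals of 10 smooth muscle genes lay between 318 and 496 times the 75th percentile, those of 10 urothelial genes between 229 and 287, and the uroplakins Upk1a, Upk1b, Upk2 and Upk3a were well above background on 12 of 12 arrays.

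The 6 genes fell into 2 sets by how they varied from animal to animal. Andpro, Scgb1d2 and Scgb1d4 were bright in young animals with a wide spread, and were mostly unreadable in both old groups apart from old fed replicate 3. Klk1, Klk1c2 and Klk1c8 differed less between groups and had a narrow spread. In young animals the brightest array exceeded the dimmest by 9.04-fold for Andpro, 10.8-fold for Scgb1d2 and 8.55-fold for Scgb1d4. The same ratio was 1.88 for Klk1, 1.79 for Klk1c2 and 2.09 for Klk1c8.

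**Figure D1:**
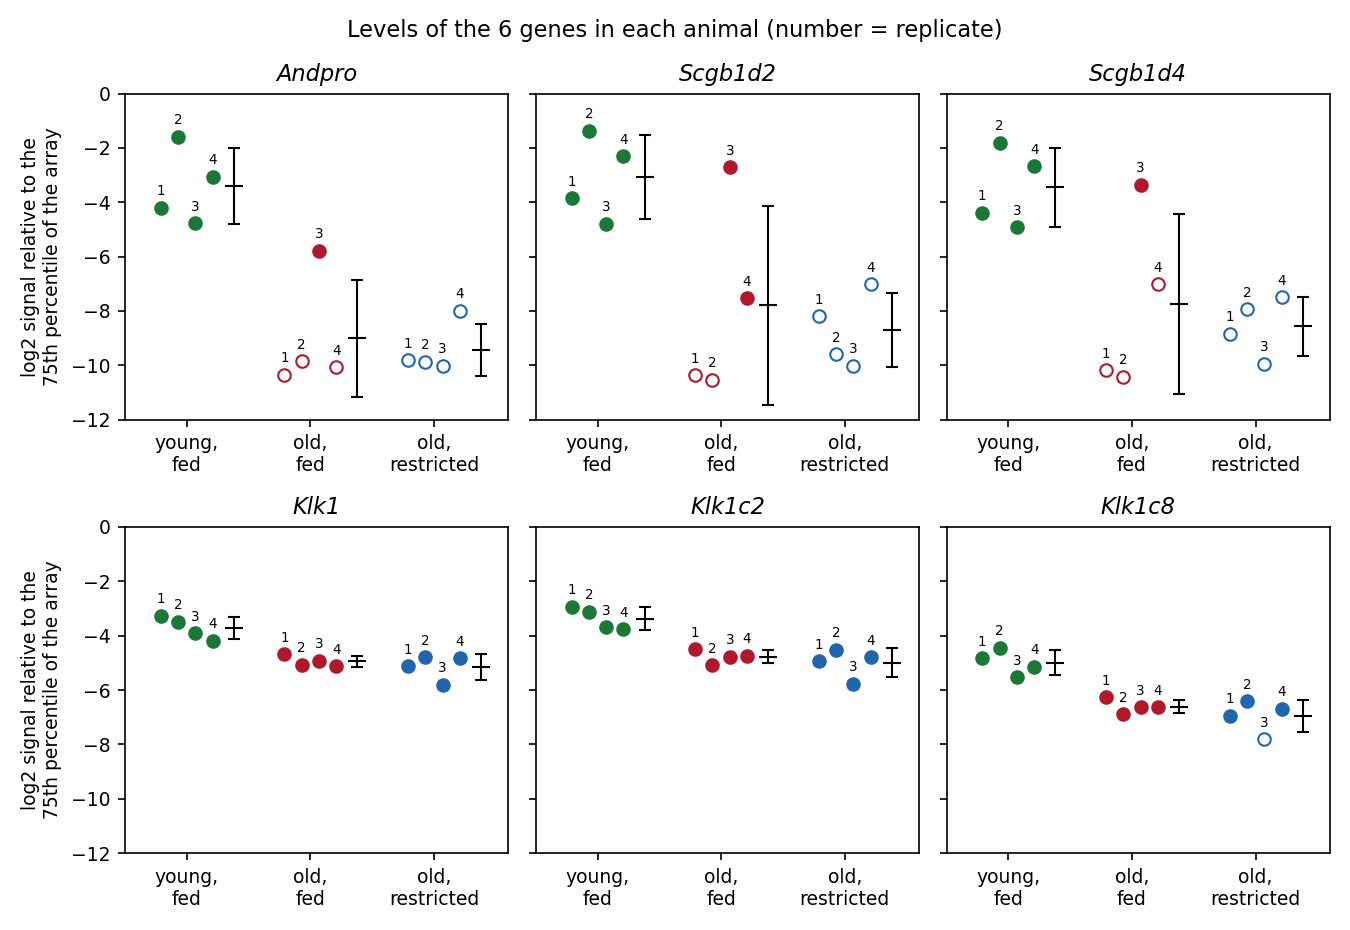
Level of each of the 6 genes on each of the 12 arrays, as log2 signal relative to the 75th percentile of the array (vertical axis), by group (horizontal axis); filled points are well above background, open points are not, numbers are replicates, and bars are the group mean with SD (n = 4). In the upper panels the old points are open except for replicate 3 of the old fed group and, for Scgb1d2, replicate 4; in the lower panels every old point lies below every young point.

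The sequences just before the annotated starts of the 6 genes show how closely the members of each set resemble one another. The 100 bases upstream of each start are given here from RefSeq promoters of the rat GRCr8 assembly, 5′ to 3′ on the strand of the gene, because genes within each set also moved together across animals. Capitals mark the letters TATAAA, the core of a TATA box, or the related letters TTTAAA, which were added to the search after the sequences had been seen.
Andpro, chr3:157178105-157178204, minus strand: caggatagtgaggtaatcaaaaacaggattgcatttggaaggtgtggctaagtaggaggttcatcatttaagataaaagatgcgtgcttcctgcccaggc
Scgb1d2, chr1:215656711-215656810, minus strand: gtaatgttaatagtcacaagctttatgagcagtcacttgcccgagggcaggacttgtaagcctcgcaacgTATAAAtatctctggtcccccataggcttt
Scgb1d4, chr1:215755263-215755362, plus strand: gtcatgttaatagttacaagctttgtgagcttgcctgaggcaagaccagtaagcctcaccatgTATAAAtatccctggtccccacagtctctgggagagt
Klk1, chr1:103779052-103779151, plus strand: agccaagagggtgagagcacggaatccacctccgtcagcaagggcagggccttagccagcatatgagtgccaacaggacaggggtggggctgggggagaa
Klk1c2, chr1:103633001-103633100, minus strand: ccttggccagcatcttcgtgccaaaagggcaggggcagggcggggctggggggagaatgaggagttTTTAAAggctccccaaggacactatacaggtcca
Klk1c8, chr1:103684193-103684292, plus strand: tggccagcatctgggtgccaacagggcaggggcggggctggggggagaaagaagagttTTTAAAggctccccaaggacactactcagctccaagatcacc
Over 250 bases upstream, the promoters of Scgb1d2 and Scgb1d4 aligned over 226 bases with 83.6% identity. Klk1 aligned with Klk1c8 over 195 bases at 91.3% identity and with Klk1c2 over 194 bases at 86.6%, and Klk1c2 aligned with Klk1c8 over 242 bases at 86.8%. The other 11 pairs, including every pair with Andpro, aligned over 7 to 16 bases. The likeness of the promoters was thus limited to genes of one family.

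TATAAA, searched on the strand of the gene, lay 30 to 25 bases before the start of Scgb1d2 and 37 to 32 bases before that of Scgb1d4, and a second copy lay 122 to 117 bases before Scgb1d2. These letters occurred in 8.06% of 33469 rat promoters of the same length. TTTAAA, which reads the same on both strands, lay 34 to 29 bases before the start of Klk1c2 and 42 to 37 bases before that of Klk1c8, and occurred in 12.3% of the promoters. In Klk1 the alignment ended at its annotated start opposite a base that lies 44 bases before the start in Klk1c2 and 52 before it in Klk1c8, and TTTAAA lay at bases 10 to 15 after that start. The letters TGTTCT, the stronger part of an androgen or glucocorticoid response element, were searched on both strands and were in none of these 6 windows, against 17.5% of all promoters. The full palindromic androgen response element, of which TGTTCT is a part, was in none of them, against 0.012% of all. By RefSeq order on chromosome 1, 3 genes lie between Klk1c2 and Klk1c8, 5 between Klk1c8 and Klk1 and 1 between Scgb1d2 and Scgb1d4, while Andpro is on chromosome 3.

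Andpro read -4.20, -1.59, -4.77 and -3.06 in young replicates 1 to 4, and -10.34, -9.85, -5.78 and -10.08 in old fed replicates 1 to 4. In restricted replicates 1 to 4 it read -9.81, -9.87, -10.01 and -7.99. All young values lay above all old values, and young replicate 2 was the brightest. Of the old arrays, old fed replicate 3 was the 1 array well above background, where the 2 spots of the probe gave intensities of 84.9 and 84.6. The group means were -3.41 ± 1.40 in young, -9.01 ± 2.17 in old fed and -9.42 ± 0.96 in restricted animals (SD, n = 4 each).

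The difference for Andpro was -5.61 ± 0.99 (SE) between old fed and young animals and -6.01 ± 0.99 between restricted and young animals. Since most old arrays could not be read, these differences have only a lower bound as fold changes. The bound sets each unreadable array at the lowest level that was well above background on it, or at the probe's own level if that was higher. By it, Andpro was at least 17.4-fold lower in old fed and at least 18.4-fold lower in restricted animals than in young animals. The age bound was 26.2-fold without old fed replicate 3 and 11.5-fold without young replicate 2, and the bound for restricted animals was 12.1-fold without young replicate 2.

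Scgb1d2 read -3.85, -1.37, -4.80 and -2.30 in young replicates 1 to 4. It read -10.37, -10.54, -2.71 and -7.53 in old fed replicates 1 to 4, and -8.20, -9.60, -10.02 and -7.02 in restricted replicates 1 to 4. Old fed replicate 3 lay inside the range of young animals, so these groups overlapped, while all restricted values lay below all young values. It was well above background in old fed replicates 3 and 4, 2 of 4 arrays, and on 0 of 4 restricted arrays. In restricted replicate 4 only 1 of the 2 spots was well above background, at an intensity of 42.8, so that array was not counted. In intensity, old fed replicate 3 gave 709.5 against 25.6 in replicate 4, 3.5 in replicate 1 and 3.3 in replicate 2. A single old fed animal therefore carried nearly all of that group's Scgb1d2 signal.

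The group means of Scgb1d2 were -3.08 ± 1.54 in young, -7.79 ± 3.65 in old fed and -8.71 ± 1.37 in restricted animals (SD, n = 4 each). The difference was -4.71 ± 1.5 (SE) for old fed minus young, at least 12.2-fold, and -5.63 ± 1.5 for restricted minus young, at least 21.4-fold. Without old fed replicate 3 the age bound was 30.5-fold, and without young replicate 2 it was 8.2-fold.

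Scgb1d4, which encodes the other of these prostatein subunits, read -4.38, -1.82, -4.92 and -2.67 in young replicates 1 to 4. In old fed replicates 1 to 4 it read -10.18, -10.43, -3.36 and -7.01, and in restricted replicates 1 to 4 it read -8.84, -7.94, -9.95 and -7.50. As for Scgb1d2, old fed replicate 3 lay among the young animals and the restricted animals lay below all of them. It was well above background on 1 of 4 old fed arrays and 0 of 4 restricted arrays. In old fed replicate 4 the 2 spots disagreed, at intensities of 65.0 and 20.7, and that array was not counted as readable. Restricted replicates 2 and 4 also had only 1 of the 2 spots well above background, at intensities of 27.3 and 26.9.

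The group means of Scgb1d4 were -3.45 ± 1.45, -7.75 ± 3.31 and -8.56 ± 1.08 in young, old fed and restricted animals (SD, n = 4 each). Old fed animals were lower than young animals by a difference of -4.30 ± 1.35 (SE), at least 9.64-fold, and restricted animals by -5.11 ± 1.35, at least 17.9-fold. The age bound was 20.9-fold without old fed replicate 3, 6.54-fold without old fed replicate 2 and 6.63-fold without young replicate 2. Without young replicate 2 the bound for restricted animals was 12.3-fold. Scgb2a1, which encodes the subunit that pairs with either of these in prostatein, was not well above background on any of the 12 arrays, with means of -9.09, -10.01 and -9.69 in young, old fed and restricted animals. These lay close to the means of the negative control spots, -9.08, -10.17 and -9.69 in the same order.

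Klk1 read -3.27, -3.48, -3.90 and -4.18 in young replicates 1 to 4, and -4.68, -5.07, -4.92 and -5.12 in old fed replicates 1 to 4. In restricted replicates 1 to 4 it read -5.13, -4.79, -5.81 and -4.83. It was well above background on 12 of 12 arrays, and every old value lay below every young value, with a gap of 0.49 between young and old fed animals. The means were -3.71 ± 0.41, -4.95 ± 0.20 and -5.14 ± 0.47 (SD, n = 4 each). Klk1 was 2.36-fold lower in old fed than in young animals, a difference of -1.24 ± 0.24 (SE), and 2.70-fold lower in restricted than in young animals, a difference of -1.43 ± 0.24.

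Klk1c2, known as tonin, a kallikrein relative that can form angiotensin II, read -2.93, -3.11, -3.68 and -3.77 in young replicates 1 to 4. In old fed replicates 1 to 4 it read -4.50, -5.08, -4.78 and -4.73, and in restricted replicates 1 to 4 it read -4.93, -4.51, -5.76 and -4.80. It too was readable on 12 of 12 arrays with no overlap between young and old animals. The means were -3.37 ± 0.41, -4.77 ± 0.24 and -5.0 ± 0.53 (SD, n = 4 each). The differences from young animals were -1.40 ± 0.26 (SE), 2.64-fold, in old fed and -1.63 ± 0.26, 3.09-fold, in restricted animals.

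Klk1c8, another gene of the same cluster, read -4.83, -4.45, -5.52 and -5.15 in young replicates 1 to 4. It read -6.27, -6.88, -6.64 and -6.63 in old fed replicates 1 to 4, and -6.94, -6.42, -7.80 and -6.68 in restricted replicates 1 to 4. Restricted replicate 3, the lowest, was the 1 array on which it was not well above background, and again no old value reached the young range. The means were -4.99 ± 0.45, -6.61 ± 0.25 and -6.96 ± 0.60 (SD, n = 4 each). It was 3.07-fold lower in old fed than in young animals, a difference of -1.62 ± 0.29 (SE). In restricted animals it was at least 3.88-fold lower than in young animals, with a difference of -1.97 ± 0.29.

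The probe sequences were not used here, and the rat Klk1 genes are close copies of one another. A probe for one of them may therefore also have bound transcripts of another, and the 3 kallikrein values are uncertain to that extent. Leaving out any 1 array kept the fold against young animals between 2.13 and 2.63 for Klk1, 2.38 and 2.89 for Klk1c2, and 2.71 and 3.46 for Klk1c8 in old fed animals.

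Age with free access to food is the comparison of old fed with young rats. All 6 genes were lower in old fed animals, and for 4 of the 6, Andpro and the 3 kallikreins, the groups did not overlap. Among all features tested, 9.37% were lower without overlap in this comparison, and since the genes were chosen for it, nothing is read from their count. Their median difference was -2.96, against -0.05 over all features. For Scgb1d2 and Scgb1d4 the overlap came from old fed replicate 3, as the next highest old fed values, -7.53 and -7.01, lay below the lowest young values of -4.80 and -4.92. In bulk tissue, fewer cells that make a transcript and less of it per cell cannot be told apart.

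Restriction within old animals is the comparison of the 2 old groups. The group mean of all 6 genes was lower in restricted than in old fed animals, with a difference of -0.41 ± 0.99 (SE) for Andpro, -0.93 ± 1.5 for Scgb1d2 and -0.81 ± 1.35 for Scgb1d4. The differences were -0.19 ± 0.24 for Klk1, -0.23 ± 0.26 for Klk1c2 and -0.35 ± 0.29 for Klk1c8. For all 6 the groups overlapped, against 6.05% of all features that were lower without overlap. Each of the first 5 of these differences was smaller than its SE, and that of Klk1c8 exceeded it by little. For Andpro, Scgb1d2 and Scgb1d4 most arrays of both groups could not be read, so no fold is given. Without old fed replicate 3 these 3 differences turned to 0.67, 0.77 and 0.65. Nearly all values left were then unreadable, and the negative control means were also lower in old fed (-10.17) than in restricted animals (-9.69). Without restricted replicate 3 the differences of Klk1 and Klk1c2 both turned to 0.03. The direction between the old groups is thus not settled for these 5 genes. For Klk1c8 the difference stayed below 0 without any 1 array, at -0.53 to -0.08, and was 0.03 with the normexp background correction, which adds an offset to dim signals.

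Restricted old against young rats is the third comparison, and it shares its young animals with the comparison of age. All 6 genes were lower without overlap, against 10.8% of all features, with a median difference of -3.54 against -0.01 over all features. Since the genes were chosen by such differences, nothing is read from that count or median. In the order of the group means, young animals were highest for all 6 genes, old fed animals came next and restricted animals were lowest. The order of the old groups turned for Andpro, Scgb1d2 and Scgb1d4 without old fed replicate 3 and for Klk1 and Klk1c2 without restricted replicate 3. For the kallikreins the step from young to either old group was larger than the spread within groups. The step from old fed to restricted was within that spread for all 6. The young and old fed values of Scgb1d2 and Scgb1d4 overlapped through old fed replicate 3.

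**Figure D2:**
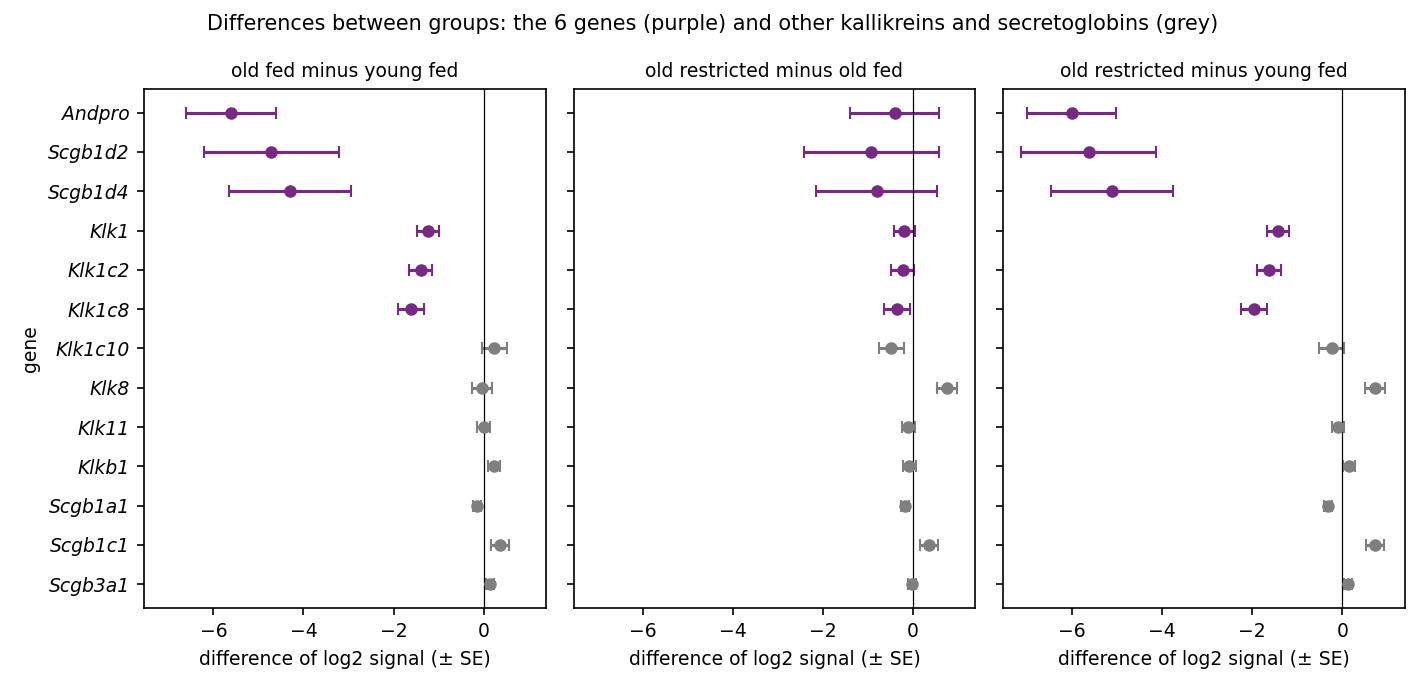
Difference in log2 signal with its SE (horizontal axis) for the 6 genes in purple and for the 7 other kallikreins and secretoglobins that were tested in grey, in each of the 3 comparisons. The purple points lie well below 0 against young animals, at -1.24 to -5.61 in old fed and -1.43 to -6.01 in restricted animals, while the grey points lie between -0.48 and 0.76 in all 3 panels. The genes in purple were chosen by their differences between these groups, so nothing is read from this contrast.

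Within groups, the 2 sets of genes ranked the animals differently. Young animals had the order 2, 4, 1, 3 from high to low for Andpro, Scgb1d2 and Scgb1d4 alike. For Klk1 and Klk1c2 the order was 1, 2, 3, 4, and for Klk1c8 it was 2, 1, 4, 3. Old fed replicate 3, by far the highest of its group for Andpro and both secretoglobins, lay in the middle of its group for all 3 kallikreins. Among restricted animals replicate 2 was highest and replicate 3 lowest for all 3 kallikreins, whereas replicate 4 was highest for the other 3 genes. None of those 3 was well above background on any restricted array, so their order there is not relied on.

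Over the 12 arrays, each gene's deviations from its group means were compared between genes, as a description. Pearson's r lay between 0.857 and 0.953 for the 3 pairs of kallikreins and between 0.867 and 0.962 for the 3 pairs among Andpro and the secretoglobins. For the 9 pairs with 1 gene from each set it lay between 0.104 and 0.324. Without old fed replicate 3 the range was 0.662 to 0.902 for the second set, still above the range of 0.138 to 0.552 for the mixed pairs, and 0.859 to 0.953 for the kallikreins. Genes on 1 array share its RNA, hybridisation and background, and the kallikrein probes may share targets.

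**Figure D3:**
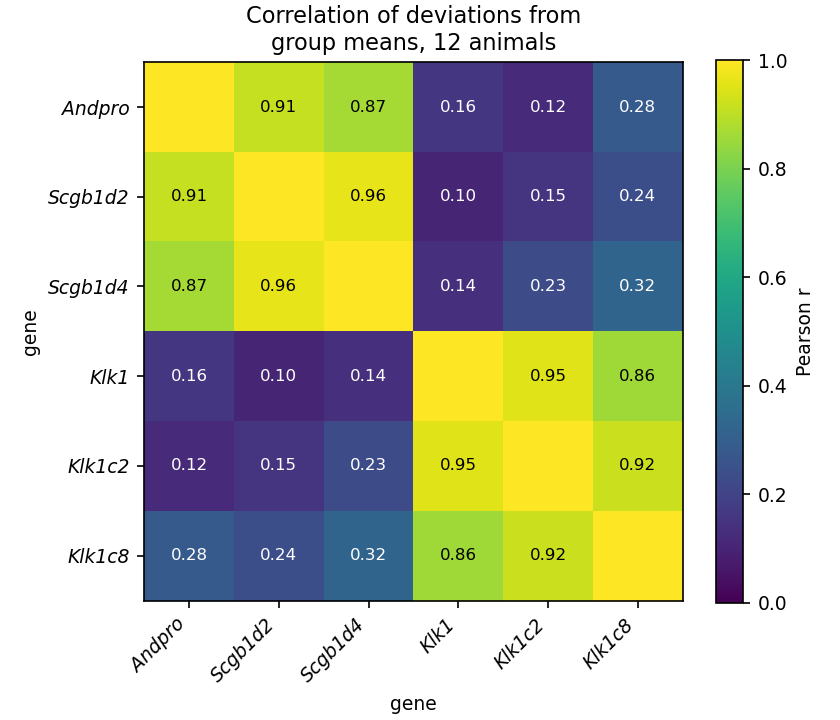
Pearson's r between genes of the deviations of log2 level from the group means over the 12 animals; both axes list the 6 genes and colour gives r from 0 to 1. The 2 bright blocks hold the pairs among Andpro, Scgb1d2 and Scgb1d4, from 0.87 to 0.96, and the pairs among the kallikreins, from 0.86 to 0.95, and mixed pairs reach at most 0.32.

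Markers of the neighbouring male glands were read on the same arrays. The list of prostate, coagulating gland and seminal vesicle genes held 28 genes on the array besides Andpro, and 15 of them were not well above background on any of the 12 arrays. These included Pbsn, the probasin of the dorsolateral prostate, the seminal vesicle secretory proteins Svs1, Svs3a, Svs3b, Svs4, Svs5 and Svs6, as well as Semg1, Azgp1 and Msmb. Several of the 15 still gave values above the lowest readable level of an array though not marked well above background. Svs5 gave -4.44 and -6.15 in young replicates 2 and 3, and Semg1 gave -5.04 and -6.65 in restricted replicates 1 and 4. Other examples were Svs4 at -6.99 in restricted replicate 1 and P22k15, also of the 15, at -5.66 in restricted replicate 4. The other 13 genes were readable on some arrays. Tgm4, the transglutaminase of the coagulating gland, was well above background on 12 of 12 arrays, at -6.45 to -4.46, and was not called in any comparison (limma adjusted p 0.31 to 0.61). The summed signal of the 28 genes, in multiples of the 75th percentile, was 11.3 to 12.3 in young, 9.66 to 11.8 in old fed and 11.6 to 12.7 in restricted animals. Most of it came from Tmprss2, and without that gene it was 0.484 to 0.661, 0.281 to 0.397 and 0.388 to 0.421.

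Some genes of that list followed Andpro and the secretoglobins from animal to animal. Sbp, the spermine-binding protein of the ventral prostate, read -5.41, -4.01, -5.47 and -4.36 in young replicates 1 to 4 on its brighter probe. It read -5.97, -6.14, -4.28 and -5.66 in old fed replicates 1 to 4 and -5.76, -5.78, -5.94 and -5.62 in restricted replicates 1 to 4. Young animals had the order 2, 4, 1, 3, and old fed replicate 3 stood above its group, as for Andpro, Scgb1d2 and Scgb1d4. Its deviations from group means had r of 0.92 with Andpro, 0.91 with Scgb1d2 and 0.912 with Scgb1d4 over 12 arrays. On its dimmer probe, readable on 4 arrays, r was between 0.379 and 0.521.

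Sbp was not called lower in either old group: its difference was -0.70 ± 0.41 (SE) for old fed minus young (limma adjusted p = 0.32) and -0.96 ± 0.41 for restricted minus young (adjusted p = 0.16). Wfdc3, a protein of the whey acidic protein family, read -6.73, -4.69, -7.86 and -5.44 in young and -7.99, -8.13, -5.37 and -7.91 in old fed replicates 1 to 4. It had the same order of young animals and the same high old fed replicate 3, though its lowest young value, in replicate 3, was not well above background. In restricted animals it read -7.58 to -7.19. Hoxb13, a homeobox factor of the prostate and lower urogenital tract, read -6.46, -5.28, -6.16 and -6.20 in young and -10.22, -10.19, -6.85 and -7.75 in old fed replicates 1 to 4. Its young animals were not in the order of Andpro and the secretoglobins, as replicate 1 was lowest and was not well above background. Hoxb13 was well above background on 3 of 4 young arrays, on old fed replicate 3 and on 0 of 4 restricted arrays. Wfdc3 and Hoxb13 were too dim to be tested. The part that prostate tissue in the samples had in the levels of the 6 genes was not tested.

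**Figure D4:**
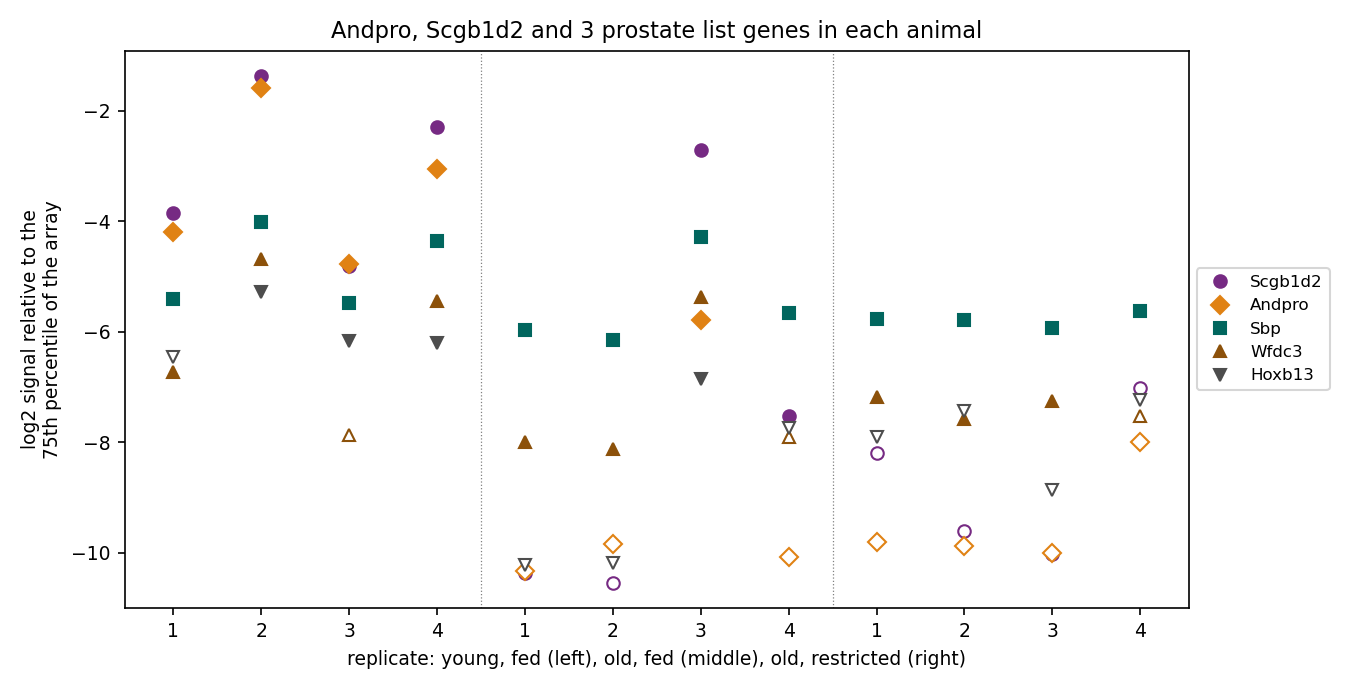
Level of Andpro, Scgb1d2 and the prostate list genes Sbp, Wfdc3 and Hoxb13 on each array, as log2 signal relative to the 75th percentile of the array (vertical axis), for the 4 replicates of each group (horizontal axis); filled points are well above background. Replicate 2 is highest of the young animals for all 5 genes, and replicate 3 stands above the other old fed animals for all 5, with Scgb1d2 at -2.71 and Sbp at -4.28.

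Of the 28 genes, 10 could be tested, and 1 was called lower in old fed than in young animals, against 2.1% of all features. That gene was Cyp2f4, a cytochrome P450 of the lung and other epithelia. Its mean was -2.76 ± 0.26 in young, -4.41 ± 0.90 in old fed and -4.53 ± 0.56 in restricted animals (SD, n = 4 each). It fell 3.14-fold with age (limma adjusted p = 0.043) and was 3.39-fold lower in restricted than in young animals (limma adjusted p = 0.02), against 5.99% of all features called lower in that comparison. Unlike Andpro and the secretoglobins, it read -4.25 in old fed replicate 3, inside the range of that group. The age call held without old fed replicates 1 or 4 or restricted replicate 3, and the adjusted p was 0.051 to 0.097 without any other array. It was also lost, at 0.054 to 0.088, with quantile scaling, median centring, no brightness trend, the replicate number as a block or only the groups compared in the fit. That of restricted against young animals was lost at 0.052 without restricted replicate 1 or 2. In restricted against old fed animals 0 of the 10 were called by limma, with 3 at an unadjusted p under 0.05, and the medians of the list were -0.28, 0.07 and -0.10 in the 3 comparisons in the order given above.

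Other genes of the kallikrein family were mostly unreadable in the bladder. Of 21 further kallikrein genes 14 were on the array, 8 of them well above background on no array, and 4 could be tested: Klk1c10, Klk8, Klk11 and Klkb1. In each of the 3 comparisons 0 of these 4 were called by limma. At an unadjusted p under 0.05 there were 0 with age, 1 with restriction in old animals and 1 in restricted against young animals. Klkb1, plasma kallikrein, which releases bradykinin in blood, read -1.37 ± 0.24, -1.14 ± 0.26 and -1.22 ± 0.17 in young, old fed and restricted animals (SD, n = 4 each), and Klk11 read -5.38 ± 0.17, -5.39 ± 0.22 and -5.49 ± 0.22. Klk1c10, which belongs to the same cluster as Klk1c2 and was singled out after its values were seen, differed by 0.24 ± 0.28 (SE) between old fed and young animals (limma adjusted p = 0.63).

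Of 10 further secretoglobin genes 6 were on the array and 3 could be tested. With age 0 were called by limma, and 0 had an unadjusted p under 0.05. Scgb1c1 was called higher in restricted than in young animals, with a difference of 0.72 ± 0.20 (SE; limma adjusted p = 0.047). In that comparison 3.19% of all features were called higher. Scgb1c1 was well above background on 0 of 4 young and 4 of 4 restricted arrays, and the bound was at least 1.65-fold. It entered the genes tested through the old groups alone and had to be dimmer in young animals, so nothing is read from this call. Without the filter on dim probes its limma adjusted p was 0.043. That call held without young replicate 2, old fed replicates 2 or 3 or restricted replicate 2, and the adjusted p was 0.06 to 0.11 without any other array. It was lost too with the replicate block (0.065), with only the groups compared (0.056) and with normexp (0.17), where the difference was 0.20.

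The kinin system, on which tissue kallikrein acts, was covered by 20 further genes on the array, of which 14 could be tested. In each of the 3 comparisons 1 of these was called, and it was lower. With restriction in old animals 2.02% of all features were called lower. Spink8, a serine protease inhibitor of the Kazal family, was lower with age by -0.41 ± 0.10 (SE; limma adjusted p = 0.041), and was lower by -0.44 ± 0.10 in restricted than in young animals (limma adjusted p = 0.02). Xpnpep2, an aminopeptidase that inactivates bradykinin, was lower by -1.35 ± 0.33 in restricted than in old fed animals (limma adjusted p = 0.048). It was well above background on 4 of 4 old fed arrays and on 0 of 4 in each other group, so it entered the genes tested through the old fed group alone and had to be dimmer elsewhere. The bound was at least 1.82-fold, and without the filter on dim probes the adjusted p was 0.057, so nothing is read from this call. The age call of Spink8 held without old fed replicate 1 or restricted replicate 3 and was 0.053 to 0.098 without any other array, and its other call was lost at 0.051 to 0.056 without young replicate 2 or restricted replicate 1 or 3. Both calls of Spink8 were lost with normexp (0.094 and 0.20) and with outlier spots kept (0.12 and 0.32). The age call was lost too, at 0.057 to 0.098, with quantile scaling, median centring, no brightness trend, the replicate block or only the groups compared. The call of Xpnpep2 held without restricted replicate 3 and was 0.054 to 0.11 without any other array. It was lost too with quantile scaling, median centring, the replicate block or only the groups compared (0.052 to 0.087), and with normexp (0.19), where the difference was -0.24.

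Genes of androgen action and conversion were read because Andpro and prostatein are known androgen targets in the prostate. Of 24 such genes 23 could be tested. With age 1 was called, and it was higher, against 1.63% of all features. With restriction in old animals 2 were called higher, against 1.62% of all features. In restricted against young animals 3 were called, all higher, against 3.19% of all features. Akr1c14, which interconverts active and weak androgens, rose with age by 0.74 ± 0.15 (SE; limma adjusted p = 0.029). Fkbp5, a chaperone induced by androgens and glucocorticoids, was higher in restricted animals by 1.24 ± 0.27 (SE) than in old fed animals (limma adjusted p = 0.032) and by 1.15 ± 0.27 than in young animals (limma adjusted p = 0.026). Tsc22d3, a glucocorticoid-induced gene, was higher in restricted animals by 0.58 ± 0.12 and 0.44 ± 0.12 (limma adjusted p = 0.025 and 0.044). None of these followed the order of the group means of the 6 genes. Leaving out 1 array in turn lost the call of Akr1c14 for 4 arrays (adjusted p 0.05 to 0.074), those of Fkbp5 for 6 and 5 arrays (0.063 to 0.095 and 0.055 to 0.072) and those of Tsc22d3 for 4 and 10 arrays (0.051 to 0.059 and 0.055 to 0.098). With only the groups compared the call of Akr1c14 was lost (0.071), as were those of Fkbp5 (0.064) and Tsc22d3 (0.06) against old fed animals, which the replicate block also lost (0.051 and 0.052). The call of Tsc22d3 against young animals was lost with normexp, no brightness trend or the replicate block (0.056 to 0.063).

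Other cell types also moved with the groups. Over all features 428 (2.1%) were called lower and 332 (1.63%) higher with age. This split was 152 to 364 with quantile scaling and 145 to 370 with median centring. In restricted against young animals 1223 (5.99%) were called lower and 651 (3.19%) higher, and 880 and 826 with quantile scaling. Of 14 lymphocyte markers tested 8 were called with age, all higher, while 2 of 10 smooth muscle, 2 of 15 nerve and 1 of 11 striated muscle markers were called lower. Leaving out 1 array gave 4 to 10 lymphocyte, 0 to 4 smooth muscle, 0 to 4 nerve and 0 to 3 striated muscle calls in these directions, so for muscle and nerve no count is relied on. The summed lymphocyte signal was 2.04 to 2.63 in young, 3.95 to 11.5 in old fed and 2.40 to 3.27 in restricted animals, and the summed smooth muscle signal was 469 to 496, 318 to 444 and 376 to 443. The 11.5 was old fed replicate 2, and the other old fed animals gave 3.95 to 4.36. The 318 was old fed replicate 4, where Tagln read -1.97 against 5.82 to 6.24 in its group, and without Tagln the sums were 392 to 418, 310.0 to 369 and 317 to 369. Of 9 epididymis and vas deferens markers tested 0 were called by limma in any comparison, and 0, 1 and 1 had an unadjusted p under 0.05. Salivary glands are a main source of kallikreins, and of 7 salivary and sweat-type gland genes tested 1 was called higher with age and 1 lower in restricted against young animals. Of 10 urothelial genes 1 was called higher with age, and of 19 genes of secretory epithelium 2 were. The part of these shifts in the levels of the 6 genes was not tested.

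Some genes followed the pattern of single members over the 12 arrays, as found by Pearson's r among 12030 named features. These values hold the differences between groups as well as those between animals, and are a description. For Scgb1d2 the most alike was Sbp, with r of 0.92 and Spearman's rho of 0.993, and r was 0.865 over 10 arrays without young replicates 2 and 4. Sbp was also the most alike for Scgb1d4, with r of 0.92, rho of 0.979 and r of 0.856 without those 2 arrays. Hipk1, a protein kinase, came next for both, with r of 0.903 and 0.902, and Gsn, the actin-severing protein gelsolin, had 0.88 and 0.888. Ldhb (0.876) and Ciao3 (0.868) followed for Scgb1d2, and Prrt1 (0.901) and Hs2st1 (0.891) for Scgb1d4.

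For Andpro the most alike was Pdlim4, a LIM domain protein, with r of 0.914, rho of 0.839 and r of 0.841 without young replicates 2 and 4. Slc35c1 (0.899), Tecpr1 (0.893), Idh2 (0.89) and Homer1 (0.886) followed. For Klk1 it was Lamc1, a laminin chain of basement membranes, with r of 0.981, rho of 0.979 and r of 0.961 without young replicates 1 and 2. Ces1d (0.959), Zfp532 (0.958), Oaz1 (0.957) and Clmp (0.957) followed. Lamc1 differed far less between groups than Klk1 did, by -0.40 against -1.24 with age, so the likeness was in shape and not in size.

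For Klk1c2 the most alike was Irag1, a smooth muscle protein of the nitric oxide pathway, with r of 0.973, rho of 0.902 and r of 0.951 without young replicates 1 and 2. Zfp532 (0.972), Clmp (0.964), Lamc1 (0.962) and Tns1 (0.956) followed. For Klk1c8 it was Sgcb, a sarcoglycan of muscle membranes, with r of 0.957, rho of 0.895 and r of 0.962 without the same 2 arrays, then Zfand3 (0.955), Homer1 (0.955), Tcf20 (0.954) and Irag1 (0.951). The number of features with r over 0.9 was 93 for Klk1, 94 for Klk1c2 and 51 for Klk1c8. It was 1 for Andpro, 2 for Scgb1d2 and 3 for Scgb1d4. Most old arrays could not be read for Andpro, Scgb1d2 and Scgb1d4, which limits r for them. For every member r also holds the differences between groups by which it was chosen. No difference between the sets is therefore read from these counts.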

How the data were processed

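Cy3-labelled RNA of 12 bladders was hybridised to 1-colour arrays, with 1 animal on each, per the labels' protocols. Agilent Feature Extraction 10.7 had subtracted background and detrended the deposited spot intensities within each array, per the file headers. Arrays had not been scaled to each other, and the headers give rn4 as genome build. The deposited table of processed values equalled the scanner files' processed signal in 100% of spots (relative tolerance 1e-06, array medians 473 to 592.6, linear scale, not centred) and was not used further.

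From the deposited intensities, log2 values were taken and the 75th percentile over the 58717 non-control spots was subtracted on each array. That percentile was 3993.2 to 4837 in young, 4646.1 to 4891.7 in old fed and 4123.4 to 4696.7 in restricted animals, and no spot was saturated. Spots marked as outliers were left out, and the spots of a probe were averaged. A probe counted as readable (well above background) if more than 0.5 of its spots did. Accessions matched to a RefSeq table of GRCr8, used for names and promoters, named 17998 of 30367 probes (59.3%). Probes that passed this on all 4 arrays of a group (23089) were kept, with the brightest standing for its gene. That left 20425 features, of which 18564 passed on all 12 arrays.

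Models were fitted with limma 3.58 in R 4.3, with 1 mean per group over 12 arrays. Moderated two-sided tests used a brightness trend (eBayes, residual df 9, prior df 2.72), and p-values were adjusted over all features by Benjamini-Hochberg, with calls at 0.05. The steps were checked on simulated data. The labels give separate replicates, and p-values measure the spread between these animals. The number of arrays limits precision, as does signal over background for dim probes.

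The 6 genes and the 13 lists (253 symbols, 147 of them tested, 7 unmatched) were chosen with earlier results of these data known. Named were the 6 genes, from each list up to 4 called genes, lowest adjusted p first, or its 2 brightest genes where none was called, readable genes of the prostate list, and the 5 named features most like each of the 6 genes. A gene that this rule takes is not reported here: it is among the genes tested, and in the counts over all lists, but its call in the androgen list and its check for outlying animals are not given. Alternatives changed the scaling, the background correction, the filter, the probes averaged, the brightness trend, the arrays in the fit and the outlier spots, added the replicate number, or left out 1 array. The planned normexp correction (offset 50) was to use mean spot signals, and median spot signals were used in their place.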

Additional observations from a re-analysis of the deposited data

Results flagged for a closer look

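The 6 genes and the genes that the naming rule took from the lists gave 81 groups of 4 animals. Of these, 8 had 1 animal far from the other 3 by Dixon's criterion, which sets the gap to the nearest animal against the range. Chance alone gives this in about 1 group in 20. For Andpro, old fed replicate 3 read -5.78 against -10.34 to -9.85 in the others, and restricted replicate 4 read -7.99 against -10.01 to -9.81, though it was not well above background. Wfdc3, of the prostate list, was also high in old fed replicate 3, at -5.37 against -8.13 to -7.91.

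In old fed replicate 2, Tgm4, the transglutaminase of the coagulating gland, read -6.45 against -4.94 to -4.75, and Tmprss2, a membrane serine protease, read 3.23 against 3.49 to 3.51. In young animals, Scgb1c1 read -6.49 in replicate 2 against -6.95 to -6.90 and Tsc22d3 read 0.67 in replicate 3 against 0.90 to 0.92. Tsc22d3 was also apart in restricted replicate 4, at 1.65 against 1.13 to 1.18.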

How the results depend on the processing

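The differences of the 6 genes stayed below 0 under all 128 alternative values in old fed against young animals and all 128 in restricted against young animals, and under 121 of 128 in restricted against old fed animals. The normexp correction, which adds an offset to dim signals, moved them most. With it the age difference was -2.50 for Andpro, -2.25 for Scgb1d2, -1.93 for Scgb1d4 and -0.89 for Klk1c8, and the difference of restricted from young animals was -2.46 for Andpro, -1.12 for Klk1c2, -0.86 for Klk1c8, -2.68 for Scgb1d2 and -2.29 for Scgb1d4. Andpro, Klk1c8, Scgb1d2 and Scgb1d4 had no value when only probes well above background on all 12 arrays were kept. Other probes could not be tried, with 1 probe per gene.

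Counts of called genes moved more. With age, the 428 lower calls became 152 with quantile scaling, 145 with median centring, 2877 without a filter, 204 without the brightness trend and 27 with only the 2 groups compared; the 332 higher calls became 210 with normexp, 691 without a filter and 67 with 2 groups. Of list genes with age, the 7 lower calls became 1 with quantile scaling, 2 with median centring, 15 without a filter, 1 without the trend and 0 with 2 groups, and the 13 higher calls became 6 with 2 groups. With restriction in old animals, 413 lower calls became 265 with 2 groups and 331 higher calls became 568 with normexp and 213 with 2 groups. Of list genes, 7 lower calls became 4 with 2 groups, and 2 higher calls became 5 with normexp and 4 with all probes of a gene averaged. In restricted against young animals 1223 lower calls became 2478 without a filter, and 9 higher list calls became 4 with normexp. Except where a setting itself changes the genes or arrays used, the cause was not tested.

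Same-numbered animals did not deviate together: r between their deviations from group means was -0.19 to 0.095. With the replicate number as a replicate block, age gave 283 lower and 215 higher calls, with 3 lower list genes, and restriction in old animals gave 189 higher calls, 4 lower list genes and 0 higher list genes.

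Leaving out 1 array at a time gave 48 to 635 lower and 73 to 383 higher calls with age (list genes 0 to 13 and 5 to 15), 151 to 457 and 117 to 390 with restriction in old animals (1 to 10 and 0 to 3), and 460 to 1328 and 282 to 751 in restricted against young animals (6 to 19 and 3 to 10). Signal over background limits the values of Andpro, Scgb1d2 and Scgb1d4 in old animals.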
